A study of Mus musculus with 4 samples.

Results

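Interferon-responding monocytes and macrophages were taken from 4 droplet libraries of single mouse cells as barcodes that carried many transcripts of 4 interferon-induced genes. A barcode was kept with at least 1000 unique molecular identifiers (UMIs, 1 per counted transcript molecule), at least 200 genes and at most 10% of UMIs from mitochondrial genes. Interferon-high cells then had at least 5 UMIs of Lyz2 (the lysozyme of monocytes, macrophages and neutrophils), none of Cd3e (a T cell receptor subunit) or Ncr1 (a natural killer cell receptor), and at least 20 UMIs over Ifit2, Ifit3, Rsad2 and Cxcl10. They were 649 of 15752 kept barcodes and of 4165 Lyz2-positive, Cd3e-negative barcodes. The 3486 Lyz2-positive, Cd3e-negative barcodes that did not reach the 20 UMIs, called cells under the minimum here, were the comparison within each library.

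The groups were Ac, C, aC+C and IgG with 1 library each, names that the labels leave unexplained. The library titles give immune cells from within a tumour, whereas its protocol and the field for cell type speak of goblet cells of RedMUC298trTg mice sorted on mCherry, with a C57Bl6 mouse as the negative control. Mice aged 6 to 8 weeks are given for every library. With 1 library a group nothing separates a treatment from a library, and no test between groups is possible. Intervals are 95% and cover counting error only, and UMIs of 1 cell are not independent.

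Type I interferons signal through a receptor of the chains IFNAR1 and IFNAR2 to a complex that includes STAT2 and IRF9 and binds the interferon-stimulated response element in the promoters of antiviral genes. Interferon gamma signals through a receptor of its own to an overlapping set of genes, among them guanylate-binding proteins, chemokines for CXCR3-bearing lymphocytes and genes of antigen presentation. In tumours, monocytes recruited from blood turn into macrophages, and cells with this response can be found along that path.

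The 4 libraries held 61519049 to 75665201 UMIs and 3436 to 4208 kept barcodes each, beside a stated target of about 5000 cells. Median UMIs per barcode were 12652 in Ac, 13409 in C, 13343 in aC+C and 10232 in IgG in interferon-high cells, and 11876 in Ac, 10035 in C, 10492 in aC+C and 10182 in IgG in cells under the minimum. Only 28 barcode sequences were kept in more than 1 library, and 1 of the interferon-high barcodes was among them.

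The members carried the transcripts of monocytes and macrophages. Csf1r, the receptor for the macrophage growth factor CSF1, stood at 470.1 CPM in Ac, 302 in C, 279 in aC+C and 499.5 in IgG in interferon-high cells (CPM are UMIs per 1000000 UMIs summed over the cells of the class). Cd3d, a marker of T cells, was found in 0% to 1.78% of interferon-high cells after each cell was thinned to 1000 UMIs, against 63.2% to 70.6% of T cells. Before thinning Cd3d was found in 8.78% of interferon-high cells in Ac, 13% in C, 10% in aC+C and 4.76% in IgG, against 4.63% of cells under the minimum in Ac, 6.47% in C, 7.36% in aC+C and 5.96% in IgG. Fcgr1, the high-affinity IgG receptor of monocytes and macrophages, was found in 55.4% of thinned interferon-high cells in Ac, 53.3% in C, 43.9% in aC+C and 61.9% in IgG, in 33.2% of those under the minimum in Ac, 33.8% in C, 30.4% in aC+C and 26.7% in IgG, and in 0.113% to 0.616% of T cells. Before thinning the shares were 96.6% in Ac, 93.5% in C, 91.4% in aC+C and 96.8% in IgG in interferon-high cells and 82.4% in Ac, 84.1% in C, 80.8% in aC+C and 77.5% in IgG in cells under the minimum. Ccl12, a monocyte-attracting chemokine, had a UMI in 20.3% of thinned interferon-high cells in Ac, 17.2% in C, 22.3% in aC+C and 20.6% in IgG, against 7.91% of cells under the minimum in Ac, 8.73% in C, 8.87% in aC+C and 8.17% in IgG. Before thinning these shares were 52% in Ac, 50.9% in C, 59.1% in aC+C and 47.6% in IgG in interferon-high cells and 28.6% in Ac, 29.6% in C, 30.1% in aC+C and 27.4% in IgG in cells under the minimum. Neutrophil markers summed to 48.1 to 116 CPM over 10 genes, with Camp, Ngp and Ly6g at 0 in every library. The goblet cell gene Tff3 had no UMI in interferon-high cells of any library, where a count of 0 allows up to 1.06 CPM in Ac, 0.754 in C, 0.456 in aC+C and 3.52 in IgG (3 counts per library). Muc2, the intestinal mucin, had 1 UMI, in C, so the members did not carry the markers of the cell type field. Markers of T cells summed to 9.9 CPM in Ac, 27.9 in C, 17.8 in aC+C and 35.2 in IgG over 7 genes. Markers of natural killer cells summed to 115 CPM in Ac, 142 in C, 157 in aC+C and 454 in IgG over 10 genes. The natural killer marker sum was highest in IgG. Plasmacytoid dendritic cell markers summed to 1403 to 1530.3 CPM, of which 1153 to 1303 came from Bst2, itself an interferon-induced gene, and Siglech was at 0. Type 1 and type 2 conventional dendritic cell markers summed to 82.7 to 155 and 121 to 276, migratory dendritic cell markers to 176 to 205, B cell markers to 16.4 to 34.4 and mast cell and basophil markers to 16.4 to 41 CPM.

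A subset of the members carried transcripts known from mesenchymal and tumour cells, at lower levels of macrophage markers. Hmga2 (a chromatin protein of embryonic and tumour cells), Tm4sf1 (a surface protein of endothelial, mesenchymal and tumour cells), Col1a1 (collagen type I) and Sparc (a matrix protein) reached together at least 5 UMIs in 93 of the 649 interferon-high barcodes, 10 in Ac, 37 in C, 44 in aC+C and 2 in IgG. As a share of the members these were 6.76% (3.29% to 12.1%) in Ac, 21.9% (15.9% to 28.9%) in C, 16.4% (12.1% to 21.3%) in aC+C and 3.17% (0.387% to 11%) in IgG, against 1.92% of cells under the minimum in Ac, 4.41% in C, 3.81% in aC+C and 2.43% in IgG. Their median UMIs were 82726 in Ac, 64445 in C, 71252 in aC+C and 68195 in IgG, and Lyz2 had a median of 1647 CPM in Ac, 1754 in C, 725 in aC+C and 2089 in IgG in them, against 7693 in Ac, 8306 in C, 7725 in aC+C and 7237 in IgG in the other members. The 15 macrophage markers summed to 9127 CPM in Ac, 6154 in C, 4500 in aC+C and 11570 in IgG in them. In the other members these sums were 26241 in Ac, 31126 in C, 25091 in aC+C and 19758 in IgG. Some had hardly any such transcripts: 1 barcode of aC+C with 102753 UMIs had Lyz2 at 48.7 CPM and C1q at 0. No member had 5 to 9 UMIs of the 4 mesenchymal genes, so the barcodes fell into separate groups. Of 11 members with 40000 UMIs or more in Ac, 30 in C, 42 in aC+C and 2 in IgG, 10 in Ac, 30 in C, 41 in aC+C and 2 in IgG were of this kind. They held 812298 UMIs in Ac, 2297082 in C, 3385034 in aC+C and 136390 in IgG, where all members held 2829087 in Ac, 3977300 in C, 6574031 in aC+C and 852774 in IgG. Krt8, an epithelial keratin, had 82 UMIs in Ac, 318 in C, 161 in aC+C and 0 in IgG in all members, and at most 1.19 CPM in any library without these barcodes. Whether such barcodes hold several cells, or a monocyte or macrophage at all, was not tested. Results are for all 649 members unless they are said to be without mesenchymal barcodes, which leaves 556 members and likewise removes such barcodes from the cells under the minimum.

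**Figure D1:**
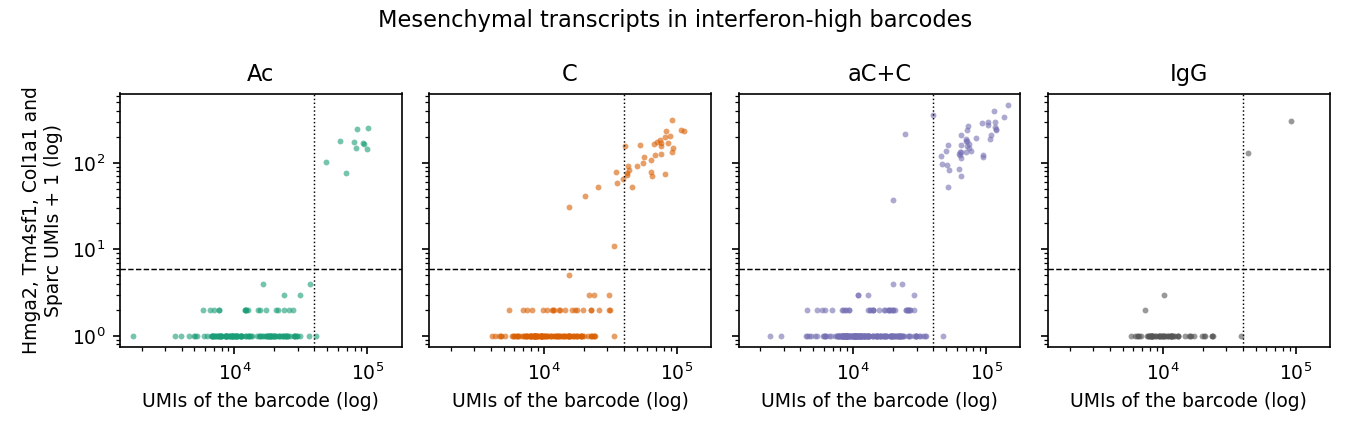
Each point is an interferon-high barcode, with its UMIs on a log x axis and its UMIs of Hmga2, Tm4sf1, Col1a1 and Sparc plus 1 on a log y axis, 1 panel per library. The dashed line is the limit of 5 UMIs and the dotted line 40000 UMIs; 10, 37, 44 and 2 points of Ac, C, aC+C and IgG lie over the dashed line, nearly all at the right.

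Of Lyz2-positive, Cd3e-negative cells, interferon-high cells made up 14.3% (12.2% to 16.6%) in Ac, 14% (12.1% to 16.1%) in C, 19.2% (17.2% to 21.4%) in aC+C and 12% (9.36% to 15.1%) in IgG. The interval of aC+C lay above those of Ac, C and IgG, while the intervals of Ac, C and IgG overlapped each other. Without the mesenchymal barcodes the shares were 13.7% (11.6% to 16%) in Ac, 11.8% (9.96% to 13.8%) in C, 17.1% (15.1% to 19.3%) in aC+C and 11.9% (9.26% to 15.1%) in IgG, and the interval of aC+C then overlapped that of Ac while it still lay above those of C and IgG. With a minimum of 2000 rule CPM of the cell in place of 20 UMIs, the shares were 12.3% in Ac, 12.7% in C, 16.3% in aC+C and 12.6% in IgG, so aC+C stayed highest and the others lay closer together. As shares of all kept barcodes, interferon-high cells were 3.68% in Ac, 4.02% in C, 6.59% in aC+C and 1.83% in IgG. Lyz2-positive, Cd3e-negative cells themselves were 25.7% of kept barcodes in Ac, 28.7% in C, 34.3% in aC+C and 15.3% in IgG, lowest in IgG. Shares of cells depend on what each library captured, and the number of cells lost before capture was not measured.

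**Figure D2:**
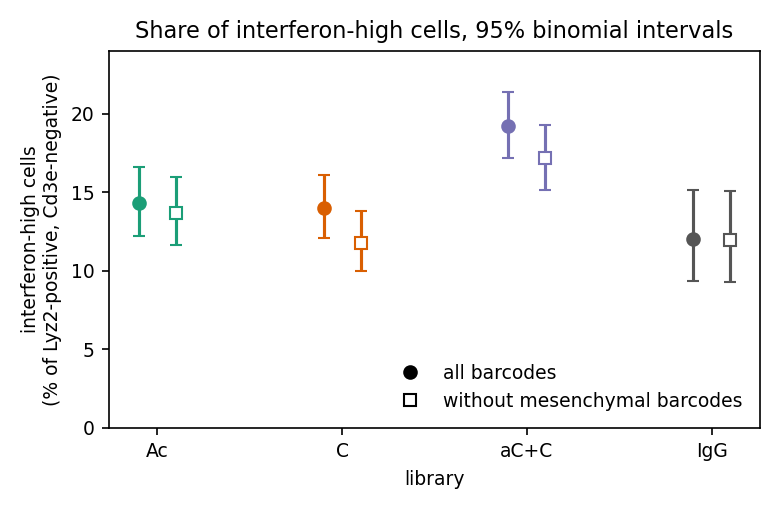
Share of interferon-high cells among Lyz2-positive, Cd3e-negative cells (y axis, percent) in each library, with all barcodes (filled circles) and without mesenchymal barcodes (open squares); bars are Clopper-Pearson intervals. The aC+C library had the highest value in both, at 19.2% and 17.1%.

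The 4 genes of the rule are given as a description, since they chose the cells. Their summed UMIs per interferon-high cell had a median of 54 in Ac, 61 in C, 64 in aC+C and 56 in IgG and a maximum of 493 in Ac, 443 in C, 1012 in aC+C and 338 in IgG, against a median of 0 in Ac, 1 in C, 1 in aC+C and 0 in IgG in cells under the minimum. Just inside the limit, with 20 to 24 UMIs, were 22 cells in Ac, 13 in C, 41 in aC+C and 6 in IgG, whose rule genes held 1399 CPM in Ac, 1005 in C, 902 in aC+C and 1870.4 in IgG. Just outside it, with 15 to 19 UMIs, were 30 cells in Ac, 32 in C, 49 in aC+C and 12 in IgG at 898 CPM in Ac, 1108 in C, 819 in aC+C and 908 in IgG. The median UMIs were 9300.5 in Ac, 11856 in C, 14021 in aC+C and 8630 in IgG just inside the limit and 15228 in Ac, 11170 in C, 14334 in aC+C and 15778 in IgG just outside it. Cells just inside had fewer UMIs than those just outside in Ac, aC+C and IgG and more in C. Cxcl10, a chemokine for CXCR3-bearing T and natural killer cells, stood at 1999.6 CPM in Ac, 2161 in C, 2588 in aC+C and 3116 in IgG, against 55.7 to 103 in cells under the minimum. Rsad2, the antiviral enzyme viperin, stood at 990.4 CPM in Ac, 569.99 in C, 816 in aC+C and 1252 in IgG, against 35.6 to 48.8. The levels did not overlap between the cell groups in any library, which the choice of cells fixes. Ifit3, an RNA-binding antiviral protein, stood at 551 CPM in Ac, 507 in C, 429 in aC+C and 872 in IgG, against 33.8 to 46. Its relative Ifit2 stood at 415 CPM in Ac, 297 in C, 308 in aC+C and 551 in IgG, against 31.1 to 36.4. Ifit3 has a near-identical copy, Ifit3b, so reads may be split between them.

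Cells outside the Lyz2-positive ones reached the 20 UMIs too. Among T cells (Cd3e-positive with fewer than 5 UMIs of Lyz2) the share was 3.35% in Ac, 4.04% in C, 3.9% in aC+C and 3.95% in IgG, with intervals between 2.59% and 5.18%. Among natural killer cells (Ncr1-positive, Cd3e-negative and likewise low in Lyz2) it was 2.45% in Ac, 2.74% in C, 3.12% in aC+C and 2.1% in IgG, with intervals between 1.01% and 6.33%. Barcodes with mesenchymal transcripts, no Cd3e and fewer than 5 UMIs of Lyz2 reached the 20 UMIs in 37.6% in Ac, 24.8% in C, 52.9% in aC+C and 36.2% in IgG, with intervals between 19% and 58.5%, at medians of 46549 UMIs in Ac, 34622 in C, 54135 in aC+C and 40049 in IgG. The T cell medians were 9039.5 UMIs in Ac, 9454 in C, 10244 in aC+C and 11314 in IgG, so depth differed between these classes and raw shares do not rank them.

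Interferon-high cells were compared with cells under the minimum within each library, with the 4 rule genes counted among all genes. Of 11138 genes with at least 100 UMIs over all sums, 200 (1.8%) were at least 2 times higher in interferon-high cells in all 4 libraries and 39 (0.35%) at least 2 times lower. Without mesenchymal barcodes 171 of 10172 genes (1.68%) were higher and 25 (0.246%) lower. Over the other 3 libraries, 473 genes were higher and 88 lower without IgG, and 245 were higher and 78 lower without Ac. Without C 201 were higher and 47 lower, and without aC+C 201 and 50. Fewer libraries had to pass in each of these counts, and why they differ was not tested. The contrast is that of the rule, so these counts describe the cells chosen and are not a test. The 20 leading genes outside the rule are shown in the plot of ratios. Of 56 type I interferon-stimulated genes outside the rule with enough UMIs, 29 were at least 2 times higher in all 4 libraries and 0 lower, where 1.8% of all genes were higher. Without mesenchymal barcodes 42 were higher, where 1.68% of all genes were. The median ratio of the list was 2.77 in Ac, 2.19 in C, 2.06 in aC+C and 3.07 in IgG, where the median over all genes was 1 in Ac, 1.03 in C, 1.03 in aC+C and 0.952 in IgG.

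Isg15, the ubiquitin-like protein that is joined to other proteins during the response, stood at 1030.4 CPM in Ac, 759.6 in C, 815 in aC+C and 1478 in IgG in interferon-high cells, against 180.4 in Ac, 166 in C, 204 in aC+C and 223 in IgG in cells under the minimum. Its ratio was 5.71 in Ac, 4.58 in C, 3.99 in aC+C and 6.61 in IgG, and 6.93 in Ac, 6.51 in C, 5.68 in aC+C and 7.49 in IgG without mesenchymal barcodes. All 4 libraries thus showed a higher level, with the highest in IgG. Ifit1, which binds viral RNA lacking host cap methylation, stood at 519.6 CPM in Ac, 387 in C, 387 in aC+C and 719 in IgG, against 28.3 to 38.7 under the minimum, a ratio of 10.2 to 18.6. Its neighbour gene Ifit1bl1 had ratios of 12.4 to 31.7 and Ifit3b of 15.6 to 20, with the sharing of reads stated above. Cmpk2, a mitochondrial nucleotide kinase next to Rsad2 in the genome, had 204 CPM in Ac, 134 in C, 184 in aC+C and 257 in IgG, against 8.69 to 13.2. Mx1, a GTPase that blocks influenza viruses in mice that carry the intact gene, had 174 CPM in Ac, 111 in C, 97.8 in aC+C and 243 in IgG, against 17.1 to 26.1. Oasl1, a member of the oligoadenylate synthetase family that restrains Irf7 translation in mice, had 228 CPM in Ac, 188 in C, 188 in aC+C and 333 in IgG, against 27.5 to 32.8. Each of these genes was higher in interferon-high cells of every library, by at least 3.99 times. Apol9a and Apol9b, a near-identical pair of apolipoprotein L genes, had ratios of 4.73 to 7.36 and 4.88 to 6.03 with all members. Most of the Apol9a UMIs came from the mesenchymal barcodes: without them Apol9a stood at 3.47 CPM in Ac, 3.57 in C, 6.59 in aC+C and 4.19 in IgG and rested on 7 UMIs in Ac, 6 in C, 21 in aC+C and 3 in IgG. Csprs, whose ratios of 3.21 to 4.55 put it among the 20 leading genes, likewise stood at 3.47 CPM in Ac, 2.38 in C, 7.21 in aC+C and 9.77 in IgG without these barcodes and was under 2 times higher in C there.

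**Figure D3:**
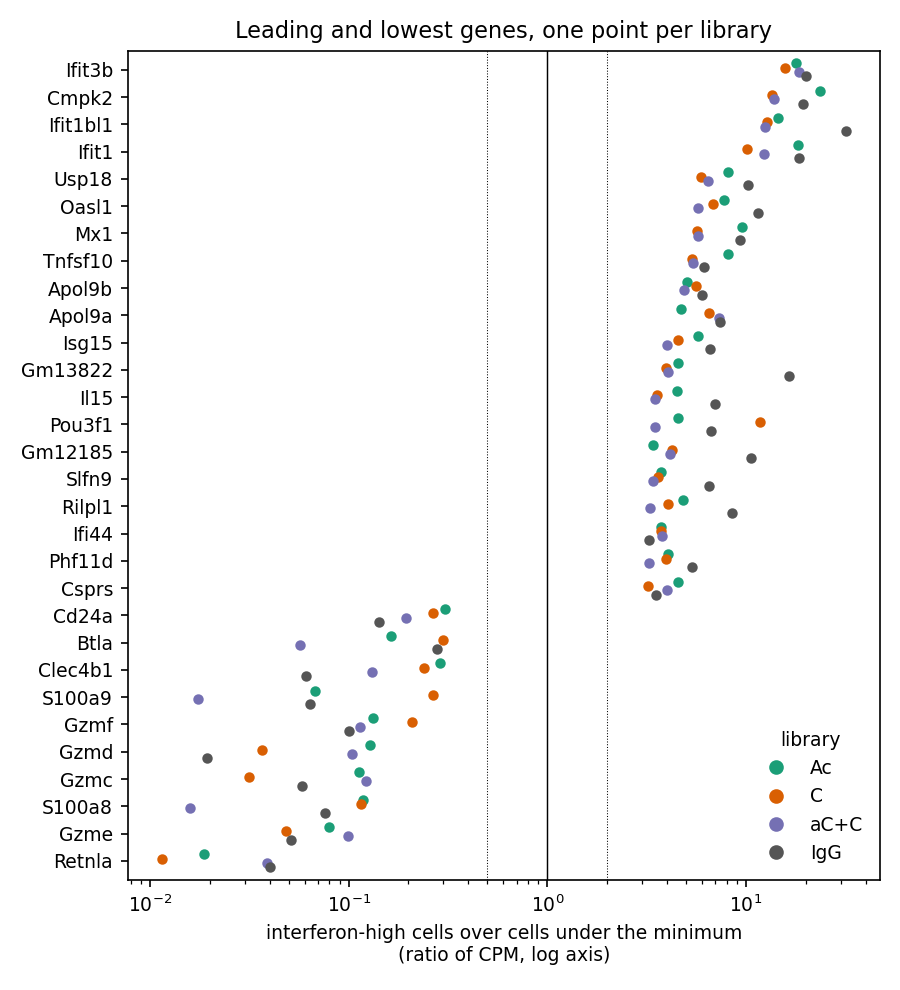
Ratio of CPM in interferon-high cells over cells under the minimum (log x axis) for the 20 genes outside the rule with the highest lowest-of-4 ratio and the 10 with the lowest highest-of-4 ratio, 1 point per library. The dotted lines mark 2 times higher and lower; every point of the upper 20 genes lies at 3.21 or more and every point of the lower 10 at 0.305 or less.

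The promoters of these genes were read from RefSeq (assembly GRCm38.p6), as 250 bases before to 50 bases after each start, to see whether the response element is in them. It was searched as GAAA, any 2 bases and GAAA again, on both strands (TTTC, any 2 bases and TTTC on the opposite strand), and overlapping matches were counted separately. At least 1 match was in 3.44% of the 32851 promoters of this length, and in 3.99% of the 27025 genes. Among the 4 rule genes 3 had a match, among 15 leading genes with a promoter there 8 had one, and among 46 type I interferon-stimulated genes outside the rule 21 had one. The promoters of Rsad2 (chr12:26456403-26456702, minus strand), Ifit1 (chr19:34640639-34640938, plus strand), Isg15 (chr4:156200769-156201068, minus strand), Cxcl10 (chr5:92348840-92349139, minus strand) and Cmpk2 (chr12:26468965-26469264, plus strand) are shown 5′ to 3′, with matches in capitals, since these genes carry the response described here and Cmpk2 is a leading gene with no match.
Rsad2: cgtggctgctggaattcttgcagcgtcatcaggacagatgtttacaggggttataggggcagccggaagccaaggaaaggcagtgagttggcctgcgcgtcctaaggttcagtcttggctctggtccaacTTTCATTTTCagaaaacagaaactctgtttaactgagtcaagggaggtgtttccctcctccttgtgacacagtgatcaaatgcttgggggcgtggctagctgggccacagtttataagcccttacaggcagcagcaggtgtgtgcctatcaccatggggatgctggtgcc
Ifit1: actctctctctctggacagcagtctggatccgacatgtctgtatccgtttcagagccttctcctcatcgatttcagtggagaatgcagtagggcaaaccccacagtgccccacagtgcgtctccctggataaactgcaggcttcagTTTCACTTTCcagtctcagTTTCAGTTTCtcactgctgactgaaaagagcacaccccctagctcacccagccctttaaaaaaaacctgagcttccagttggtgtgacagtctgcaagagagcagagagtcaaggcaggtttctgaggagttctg
Isg15: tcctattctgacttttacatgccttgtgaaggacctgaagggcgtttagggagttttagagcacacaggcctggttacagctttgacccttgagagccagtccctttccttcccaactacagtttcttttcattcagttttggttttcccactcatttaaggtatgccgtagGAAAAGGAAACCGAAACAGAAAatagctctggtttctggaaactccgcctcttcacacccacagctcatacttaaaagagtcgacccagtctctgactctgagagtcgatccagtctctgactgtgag
Cxcl10: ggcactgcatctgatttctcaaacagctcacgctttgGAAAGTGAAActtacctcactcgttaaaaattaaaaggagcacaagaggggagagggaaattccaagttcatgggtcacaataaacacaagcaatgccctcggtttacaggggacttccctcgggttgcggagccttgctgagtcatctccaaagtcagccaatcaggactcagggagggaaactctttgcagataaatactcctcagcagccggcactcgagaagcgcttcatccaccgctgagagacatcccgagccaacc
Cmpk2: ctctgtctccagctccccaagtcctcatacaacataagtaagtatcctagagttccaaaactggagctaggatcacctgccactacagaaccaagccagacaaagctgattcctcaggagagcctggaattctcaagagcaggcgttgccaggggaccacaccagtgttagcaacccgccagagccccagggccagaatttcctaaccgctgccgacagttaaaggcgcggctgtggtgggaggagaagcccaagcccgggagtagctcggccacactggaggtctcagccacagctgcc
Rsad2 had 1 match that begins 120 bases before the start. Ifit1 had 2, which begin 104 and 85 bases before it. Isg15 had 3 overlapping matches that begin 78, 72 and 66 bases before the start, and Cxcl10 had 1, which begins 213 bases before it. The absence of a match in Cmpk2 says only that these letters are not in this window. Of 11 genes of guanylate-binding proteins and immunity GTPases with a promoter in the table, 10 had a match, whereas 0 of 6 MHC class II genes and 0 of 8 monocyte marker genes had one.

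The interferon genes themselves were nearly absent from the members. Ifnb1, interferon beta, had 0 UMIs in Ac, 1 in C, 18 in aC+C and 0 in IgG in interferon-high cells. The UMIs of aC+C came from 3 cells, of which 1 held 14. The interferon alpha genes had no UMI in interferon-high cells of any library, within the limits given for Tff3. Ifng, interferon gamma, which T and natural killer cells make, had 5 UMIs in Ac, 3 in C, 6 in aC+C and 3 in IgG in interferon-high cells, and 184 CPM in Ac, 214 in C, 174 in aC+C and 176 in IgG in T cells. Which cells made the interferon was not tested.

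Few receptors and signal transducers passed. Of 16 genes, Stat2 was at least 2 times higher in all 4 libraries, where 1.8% of all genes were, and none was lower. Without mesenchymal barcodes Irf7 and Stat2 were higher, where 1.68% of all genes were. The median ratio of the list was 1.02 in Ac, 0.831 in C, 0.916 in aC+C and 1.14 in IgG. The values that follow are without mesenchymal barcodes. Ifnar1, a chain of the type I receptor, stood at 96.2 CPM in Ac, 77.4 in C, 86.9 in aC+C and 113 in IgG, against 80.9 to 99.1, and the ratio of Ifnar2 was 0.851 to 1.1. Ifngr1, the ligand-binding chain of the interferon gamma receptor, had a ratio of 0.707 in Ac, 0.654 in C, 0.656 in aC+C and 0.654 in IgG without passing 2 times. Irf7, the transcription factor that drives interferon alpha genes and is itself interferon-induced, stood at 928 CPM in Ac, 1002 in C, 917 in aC+C and 1286 in IgG, against 325 to 368. Stat2 had 136 CPM in Ac, 129 in C, 113 in aC+C and 162 in IgG, against 40.7 to 55.5. Irf9, the DNA-binding partner of STAT2, had ratios of 1.06 to 1.28 only.

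Sensors of double-stranded RNA were among the genes that were higher. Of 15 sensors and adaptors with enough UMIs, Ifih1, Ddx58 and Tlr3 were at least 2 times higher in all 4 libraries, where 1.8% of all genes were. Without mesenchymal barcodes Dhx58 joined them, where 1.68% of all genes were higher. The values that follow are without these barcodes. Ifih1 encodes MDA5, a cytoplasmic sensor of long double-stranded RNA, and stood at 290.1 CPM in Ac, 299.96 in C, 258 in aC+C and 338 in IgG, against 59 to 67. Ddx58 encodes RIG-I and had ratios of 3.56 to 5, and Tlr3, the endosomal receptor for double-stranded RNA, of 2.76 to 4.49. The DNA sensor cGAS (Mb21d1) had ratios of 1.69 to 2.38, its adaptor STING (Tmem173) of 1.1 to 1.39, and Tlr7, a receptor for single-stranded RNA, of 1.25 to 2.15. The difference between these groups of sensors was not tested.

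Of 12 negative regulators of interferon signalling, Usp18, Trim21 and Socs1 were at least 2 times higher in all 4 libraries, with and without mesenchymal barcodes, where 1.8% and 1.68% of all genes were. Usp18 removes ISG15 from proteins and blocks IFNAR2. It stood at 223 CPM in Ac, 212 in C, 209 in aC+C and 399.9 in IgG, against 27.4 in Ac, 35.8 in C, 32.3 in aC+C and 39.1 in IgG in cells under the minimum. Socs1, an inhibitor of JAK kinases, stood at 92.6 CPM in Ac, 83 in C, 85.2 in aC+C and 117 in IgG, against 25.9 to 37.4. Its relative Socs3, which inhibits signalling of the interleukin 6 family, had ratios of 1.01 to 1.4 without mesenchymal barcodes.

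Of 15 guanylate-binding proteins and immunity-related GTPases, which attack the vacuoles of intracellular microbes, 10 were at least 2 times higher in all 4 libraries (11 without mesenchymal barcodes) and 0 lower, where 1.8% (1.68% without these barcodes) of all genes were higher. The median ratio of the list was 2.6 in Ac, 2.48 in C, 2.27 in aC+C and 3.44 in IgG, where that of all genes was 0.952 to 1.03. Gbp5, which promotes inflammasome assembly, stood at 122 CPM in Ac, 96.8 in C, 119 in aC+C and 176 in IgG, against 25.8 in Ac, 25.9 in C, 38.7 in aC+C and 23.9 in IgG under the minimum. Irgm1 stood at 259 CPM in Ac, 252 in C, 255 in aC+C and 361 in IgG, against 76.5 to 112, and Igtp at 165 CPM in Ac, 254 in C, 243 in aC+C and 252 in IgG, against 48.6 to 82. Gbp and Tgtp genes have close paralogs, so the split of reads among them is uncertain.

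Genes of antigen presentation had median ratios closer to 1 than those GTPases. The median was 1.2 in Ac, 1.19 in C, 1.14 in aC+C and 1.31 in IgG for MHC class I and peptide loading. For MHC class II it was 0.87 in Ac, 0.598 in C, 0.563 in aC+C and 0.871 in IgG. Without mesenchymal barcodes the MHC class II median was 1.06 in Ac, 0.839 in C, 0.921 in aC+C and 0.934 in IgG. None of 18 genes of MHC class I and peptide loading and none of 9 of MHC class II passed 2 times in all 4 libraries in either direction. Of all genes 1.8% were higher and 0.35% lower, so no gene passing is near the general share. The peptide transporter Tap1 had ratios of 1.67 to 2.07 without mesenchymal barcodes and the light chain B2m of 1.11 to 1.23. H2-Aa, an MHC class II alpha chain, had ratios of 0.806 to 1.06 without them, on either side of 1, and of 0.543 to 0.876 with all members.

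A few chemokines and cytokines passed within their lists. Of 12 CC chemokines, Ccl2, the main attractant of CCR2-bearing monocytes, was the only one at least 2 times higher in all 4 libraries, at ratios of 2.56 to 2.88, and Ccl24 the only one 2 times lower, where 1.8% of all genes were higher and 0.35% lower. Neither passed without the mesenchymal barcodes, where the ratio of Ccl2 was 1.55 in Ac, 1.63 in C, 1.74 in aC+C and 2.29 in IgG and that of Ccl24 at most 0.525. There Ccl12 was the higher one, and Ccl22, a chemokine of activated dendritic cells, the lower one, where 1.68% of all genes were higher and 0.246% lower. In these 556 cells Ccl12 stood at 569.7 CPM in Ac, 596 in C, 736 in aC+C and 511 in IgG, against 121 to 184 under the minimum; 1 cell held 19.9% of its UMIs in IgG and 17.8% in Ac. No CXC chemokine outside the rule passed 2 times in all 4 libraries. Without mesenchymal barcodes Cxcl9, another CXCR3 ligand that depends mainly on interferon gamma, had ratios of 1.7 in Ac, 1.95 in C, 2.24 in aC+C and 2.29 in IgG, and 1 cell held 33.7% of its UMIs in IgG. The neutrophil attractant Cxcl2 had ratios of 0.688 to 1.01 there. Of 11 cytokines acting on T and natural killer cells, Il15, its presenting receptor chain Il15ra and Tnfsf10 (the death ligand TRAIL) were at least 2 times higher in all 4 libraries, joined by Il27 without mesenchymal barcodes, where 1.8% and 1.68% of all genes were higher. Without these barcodes Il15, a growth factor for natural killer and memory T cells, stood at 43.1 CPM in Ac, 47 in C, 38.3 in aC+C and 82.4 in IgG, against 8 to 10.6. Tnfsf10 stood there at 40.7 CPM in Ac, 54.8 in C, 43.3 in aC+C and 64.2 in IgG, against 3.87 to 9.77. Il1b, the inflammasome-processed cytokine, had ratios of 0.953 to 1.14, also without these barcodes. Of 13 checkpoint ligands and costimulators, none passed with all members, and Cd274 (PD-L1) and Cd40 were at least 2 times higher without mesenchymal barcodes, where 1.68% of all genes were. Cd274 stood at 188 CPM in Ac, 205 in C, 237 in aC+C and 172 in IgG there, against 67.2 to 113, and Cd40, a receptor for help from T cells, at 116 in Ac, 124 in C, 116 in aC+C and 156 in IgG, against 31.6 to 48.1. Fcgr1 was 2.09 to 2.77 times higher without mesenchymal barcodes and 1.26 to 2.58 times with them.

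Among the genes lower in interferon-high cells, Retnla, a secreted product of alternatively activated macrophages, had the smallest ratios. It stood at 1.41 CPM in Ac, 2.26 in C, 3.35 in aC+C and 2.35 in IgG, on 4 UMIs in Ac, 9 in C, 22 in aC+C and 2 in IgG, against 75.2 in Ac, 197 in C, 86.6 in aC+C and 58.6 in IgG in cells under the minimum. The levels of all 4 libraries were lower in interferon-high cells, and without mesenchymal barcodes 1 cell held 90% of the Retnla UMIs of aC+C. Several of the others are known from other cell types. S100a8 and S100a9, the calprotectin subunits of neutrophils and monocytes, were among them. S100a8 had 7 UMIs in Ac, 55 in C, 23 in aC+C and 0 in IgG in interferon-high cells, against 269 UMIs in Ac, 1642 in C, 3433 in aC+C and 263 in IgG in cells under the minimum. S100a9 had 0 UMIs in Ac, 137 in C, 27 in aC+C and 0 in IgG in interferon-high cells, of which 1 cell of C held nearly all (96.4%), against 202 UMIs in Ac, 1782 in C, 3676 in aC+C and 314 in IgG in cells under the minimum. The granzymes Gzmc, Gzmd, Gzme and Gzmf, proteases of cytotoxic lymphocytes, were also among the 10 lowest. Gzmc stood at 5.3 CPM in Ac, 9.05 in C, 4.26 in aC+C and 28.1 in IgG, against 47.3 in Ac, 288 in C, 34.7 in aC+C and 483 in IgG. The 10 natural killer markers summed to 115 CPM in Ac, 142 in C, 157 in aC+C and 454 in IgG in interferon-high cells, against 109.8 in Ac, 456 in C, 96.6 in aC+C and 714 in IgG in cells under the minimum. The 10 neutrophil markers summed to 61.5 in Ac, 116 in C, 56.9 in aC+C and 48.1 in IgG, against 97.6 in Ac, 343 in C, 635 in aC+C and 146 in IgG. Only the interferon-high cells were required to lack Ncr1, and with cells under the minimum held to the same condition 19 genes were at least 2 times lower in place of 39. Flt3, a receptor of dendritic cell precursors and conventional dendritic cells, was lower in all 4 libraries too, on 0 UMIs in Ac, 5 in C, 1 in aC+C and 2 in IgG in interferon-high cells.

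Within the 556 members without mesenchymal transcripts, the 3 chains of the complement protein C1q, which tissue macrophages make, divided the cells. At a limit of 2000 CPM over C1qa, C1qb and C1qc, 77 cells in Ac, 68 in C, 124 in aC+C and 28 in IgG were C1q-high, which is 55.8% (47.1% to 64.2%) in Ac, 51.5% (42.7% to 60.3%) in C, 55.1% (48.4% to 61.7%) in aC+C and 45.9% (33.1% to 59.2%) in IgG. The 4 intervals overlapped. Between 1000 and 4000 CPM lay 11 cells in Ac, 7 in C, 12 in aC+C and 4 in IgG, so few cells were near the limit, and 39 cells in Ac, 43 in C, 53 in aC+C and 24 in IgG had no C1q UMI. Among cells under the minimum 65.6% in Ac, 54.1% in C, 52.1% in aC+C and 55% in IgG were C1q-high, so interferon-high cells came from both sides of this divide in every library. Median UMIs were 18629 in Ac, 15428 in C, 17037 in aC+C and 12212 in IgG in C1q-high and 8769 in Ac, 8502 in C, 9630 in aC+C and 8626 in IgG in C1q-low interferon-high cells.

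Ly6c2, the surface antigen of classical monocytes, ran opposite to C1q. Its level was 340.1 CPM in Ac, 420.2 in C, 387 in aC+C and 1248 in IgG in C1q-high cells and 2539 in Ac, 3132 in C, 3292 in aC+C and 4053 in IgG in C1q-low cells without mesenchymal barcodes. Background barcodes (1 to 50 UMIs each), which held 3.58% to 4.99% of a library's UMIs, had Ly6c2 at 469 CPM in Ac, 359.8 in C, 496 in aC+C and 457 in IgG. The C1q-high cells of Ac and aC+C lay below that level, those of C and IgG above it, and the C1q-low cells above it in each library. Of 6229 genes with at least 100 UMIs over both sides, 144 (2.31%) were at least 2 times higher in C1q-high cells in all 4 libraries and 51 (0.819%) lower. The cells were divided by expression, so this is a description. Among the higher genes outside C1q were Fcrls, an Fc receptor-like gene of resident macrophages in mice, Hpgds (prostaglandin D synthase), the adhesion molecule Vcam1, the chemokines Ccl8 and Pf4, and Cd63 (a tetraspanin of lysosomes). Of 15 macrophage markers, the 3 C1q genes included, 9 were higher, and of 12 monocyte markers 8 were lower. Chil3, a chitinase-like protein of monocytes, had ratios of 0.013 to 0.168 and Vcan (the matrix proteoglycan versican) of 0.0454 to 0.199. Mrc1, the mannose receptor of macrophages, had ratios of 3.05 to 22.8, and Apoe, a lipid carrier made by macrophages, of 2.63 to 4.86.

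The interferon program itself was present on both sides. Of 56 type I interferon-stimulated genes outside the rule, 1 was at least 2 times higher and 1 lower in C1q-high cells in all 4 libraries. Of all genes 2.31% were higher and 0.819% lower, so these counts are near the general share. The list's median ratio was 0.64 in Ac, 0.549 in C, 0.695 in aC+C and 0.854 in IgG where that of all genes was 1.07 in Ac, 1.06 in C, 1.12 in aC+C and 1.05 in IgG. The higher gene was Gm4951, a predicted interferon-inducible GTPase gene, and the lower Slfn4, an interferon-induced gene of monocytes in mice. Isg15 stood at 1062 CPM in Ac, 889 in C, 1055 in aC+C and 1379 in IgG in C1q-high cells and 1818 in Ac, 1882 in C, 1819 in aC+C and 2152 in IgG in C1q-low cells. Its level was lower in C1q-high cells of each library, at ratios of 0.472 to 0.641, while both sides exceeded the 185 to 231 CPM of cells under the minimum. The C1q-high members had more UMIs per cell, so 20 rule UMIs are a smaller share of theirs, and a lower interferon level on that side cannot be told apart from the rule.

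**Figure D4:**
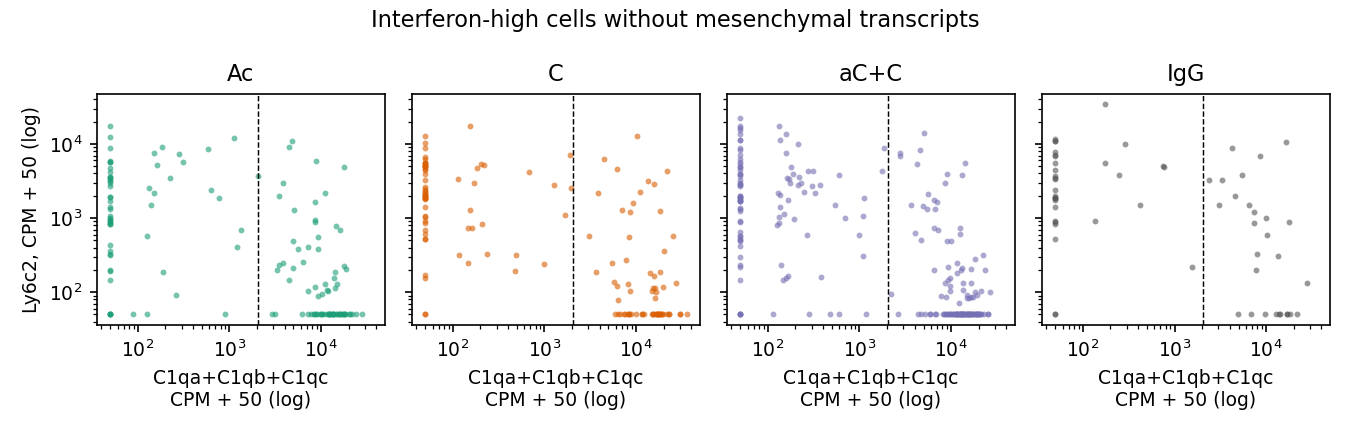
Each point is an interferon-high cell without mesenchymal transcripts, with C1qa, C1qb and C1qc (x axis) and Ly6c2 (y axis) in CPM of the cell plus 50, both log axes, 1 panel per library. The dashed line is the limit of 2000 CPM; summed over cells, Ly6c2 stood at 340.1 to 1248 CPM right of it and at 2539 to 4053 left of it.

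Interferon-high cells of Ac, C and aC+C were each set against those of IgG, gene by gene, as ratios of CPM. The 3 comparisons share the IgG cells, of which there were 63. With all members, 471 of 4636 genes (10.2%) passed 1.5 times upwards for Ac and 222 (4.79%) downwards. In C 1354 of 5690 genes (23.8%) were higher and 869 (15.3%) lower, and in aC+C 1710 of 7024 (24.3%) were higher and 935 (13.3%) lower. Without mesenchymal barcodes the numbers were 147 of 3500 genes (4.2%) higher and 135 (3.86%) lower in Ac, 136 of 3160 (4.3%) and 153 (4.84%) in C, and 300 of 4399 (6.82%) and 199 (4.52%) in aC+C. Mmp12 had the highest ratio in aC+C both with all members and without mesenchymal barcodes, among genes not dominated by 1 cell. Other genes among the highest of C and aC+C with all members, such as Prrx2 and Tubb3, were carried by the mesenchymal barcodes. C had 37 of these barcodes, aC+C 44 and IgG 2. Prrx2, a mesenchymal transcription factor, had 39 UMIs in Ac, 141 in C, 207 in aC+C and 1 in IgG in all members, and 2 UMIs in Ac, 2 in C, 3 in aC+C and 0 in IgG without them. Tubb3, a tubulin of neurons that some tumour cells also make, had 44 UMIs in Ac, 113 in C, 247 in aC+C and 1 in IgG in all members, and 0 UMIs in Ac, 1 in C, 2 in aC+C and 0 in IgG without them. The comparisons between libraries that follow therefore use the 556 members without these barcodes.

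A minority of interferon-stimulated genes passed 1.5 times downwards against IgG, while the list's median ratio was below 1 in Ac, C and aC+C. Of the type I list, 7 genes for Ac, 4 for C and 8 for aC+C were at least 1.5 times lower than in IgG, out of 55 for Ac, 56 for C and 56 for aC+C tested, where 3.86%, 4.84% and 4.52% of all genes were; 1 for Ac, 2 for C and 1 for aC+C were higher. Within C1q-high cells 12 of 54 for Ac, 15 of 52 for C and 16 of 56 for aC+C were lower, 1 each higher. All genes there had 155 of 2580, 188 of 2156 and 225 of 3391 lower. Within C1q-low cells 1 of 49 for Ac, 0 of 49 for C and 2 of 51 for aC+C were lower. There 2, 5 and 1 were higher, and all genes had 46 of 1358, 47 of 1335 and 86 of 1907 lower. The list's medians were 0.776 for Ac, 0.748 for C and 0.763 for aC+C in C1q-high and 0.97, 1.09 and 0.946 in C1q-low cells. C1q-high members had a median of 18629 UMIs in Ac, 15428 in C, 17037 in aC+C and 12212 in IgG. C1q-low members had 8769 in Ac, 8502 in C, 9630 in aC+C and 8626 in IgG. The fixed minimum of rule UMIs is thus a larger share of the UMIs of C1q-high members in IgG. These comparisons cannot separate a higher interferon level in IgG from the rule, whose part was not tested. With all members 10 for Ac, 39 for C and 36 for aC+C of the list's 56 were lower, where 4.79%, 15.3% and 13.3% of all genes were. Mesenchymal barcodes held 2297082 of 3977300 UMIs of the members in C and 3385034 of 6574031 in aC+C. In these barcodes the list summed to 11114 CPM in C and 10704.5 in aC+C, against 27753 in C and 26717 in aC+C in the other members. Without mesenchymal barcodes the list's median ratio was 0.825 for Ac, 0.871 for C and 0.81 for aC+C, beside 0.976 for Ac, 0.971 for C and 0.983 for aC+C for all genes and 0.837 for Ac, 0.957 for C and 0.986 for aC+C for the list in cells under the minimum. Isg15 stood at 1283 CPM in Ac, 1227 in C, 1304 in aC+C and 1727 in IgG, so that its ratio to IgG was 0.743 (0.694 to 0.796) for Ac, 0.71 (0.662 to 0.763) for C and 0.755 (0.708 to 0.805) for aC+C. Mx1 stood at 238 CPM in Ac, 236 in C, 190.03 in aC+C and 289 in IgG, with ratios of 0.825 for Ac, 0.818 for C and 0.658 for aC+C. IgG had the highest level of both genes, with the limit of the rule and depth stated above. Cxcl10, chosen by the rule, stood at 2385 CPM in Ac, 3362 in C, 3725 in aC+C and 3635 in IgG, lowest in Ac. Slfn4, an interferon-induced gene of monocytes in mice, stood at 90.7 CPM in Ac, 119.6 in C, 88.7 in aC+C and 189.8 in IgG, with ratios of 0.478 for Ac, 0.63 for C and 0.467 for aC+C to IgG, against 1.07 for Ac, 1.13 for C and 0.804 for aC+C in cells under the minimum. Of the receptors and transducers, 14 for Ac, 14 for C and 15 for aC+C were tested, and none passed 1.5 times in either direction. Of all genes 3.86%, 4.84% and 4.52% were lower and 4.2%, 4.3% and 6.82% higher. Within C1q-high cells 1 of 14 for Ac, 2 of 13 for C and 2 of 14 for aC+C were lower, beside the all-gene counts above. Irf7 was among them in each, and Ifnar1 in C and aC+C, while Jak2 was higher in Ac.

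Several monocyte genes passed 1.5 times downwards, most in Ac. Of 11 monocyte markers with enough UMIs, 7 for Ac, 4 for C and 4 for aC+C were at least 1.5 times lower and 1 for Ac, 1 for C and 0 for aC+C higher (Fn1 in Ac, Chil3 in C), where 3.86%, 4.84% and 4.52% of all genes were lower, and the list's median ratio was 0.631 for Ac, 0.712 for C and 0.722 for aC+C. Ly6c2 stood at 984 CPM in Ac, 1342 in C, 1333 in aC+C and 2508 in IgG, a ratio to IgG of 0.392 (0.368 to 0.418) for Ac, 0.535 (0.503 to 0.57) for C and 0.531 (0.503 to 0.562) for aC+C. In IgG 1 cell, which was C1q-low, held 15.4% of the Ly6c2 UMIs. Among cells under the minimum the Ly6c2 ratios were 0.621 for Ac, 1 for C and 1.15 for aC+C, so only Ac was lower there. Within C1q-high cells the Ly6c2 ratio was 0.273 for Ac, 0.337 for C and 0.31 for aC+C, and within C1q-low cells 0.627 for Ac, 0.773 for C and 0.812 for aC+C, of which Ac alone passed 1.5 times. The IgG value of the C1q-high ratio rests on 28 cells, of which 18 had a Ly6c2 UMI. Ly6c2 was uneven among them, at 10629 CPM in a cell of 9314 UMIs and 8779 CPM in a cell of 11277 UMIs. Over the monocyte list, 4 of 8 genes for Ac, 4 of 7 for C and 5 of 8 for aC+C were at least 1.5 times lower in C1q-high cells, and 3 for Ac, 1 for C and 2 for aC+C higher. Of all genes there, 155 of 2580 were lower and 148 higher for Ac, 188 of 2156 and 118 for C, and 225 of 3391 and 279 for aC+C. In C1q-low cells 1 for Ac, 0 for C and 1 for aC+C of 11 were lower, and Chil3 was higher in each. All genes had 46 of 1358 lower and 37 higher for Ac, 47 of 1335 and 40 for C, and 86 of 1907 and 109 for aC+C. The list's median ratio was 0.798 for Ac, 0.556 for C and 0.539 for aC+C in C1q-high cells and 0.984 for Ac, 1 for C and 0.837 for aC+C in C1q-low cells. Plac8, a gene of monocytes and other blood leukocytes, stood at 2129.6 CPM in Ac, 2656 in C, 2977 in aC+C and 3728 in IgG. Its ratios were 0.27 for Ac, 0.283 for C and 0.395 for aC+C within C1q-high cells and 1.04 for Ac, 1.17 for C and 1.3 for aC+C within C1q-low cells, on either side of 1. Ms4a4c stood at 1151 CPM in Ac, 1376 in C, 1007 in aC+C and 1823 in IgG, with ratios to IgG of 0.631 for Ac, 0.755 for C and 0.552 for aC+C. Chil3 was lowest in IgG, at 607 CPM in Ac, 798 in C, 606 in aC+C and 445 in IgG. The natural killer marker sum was also highest in IgG, at 101 CPM in Ac, 109 in C, 107 in aC+C and 518 in IgG. Its part in these results was not tested.

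**Figure D5:**
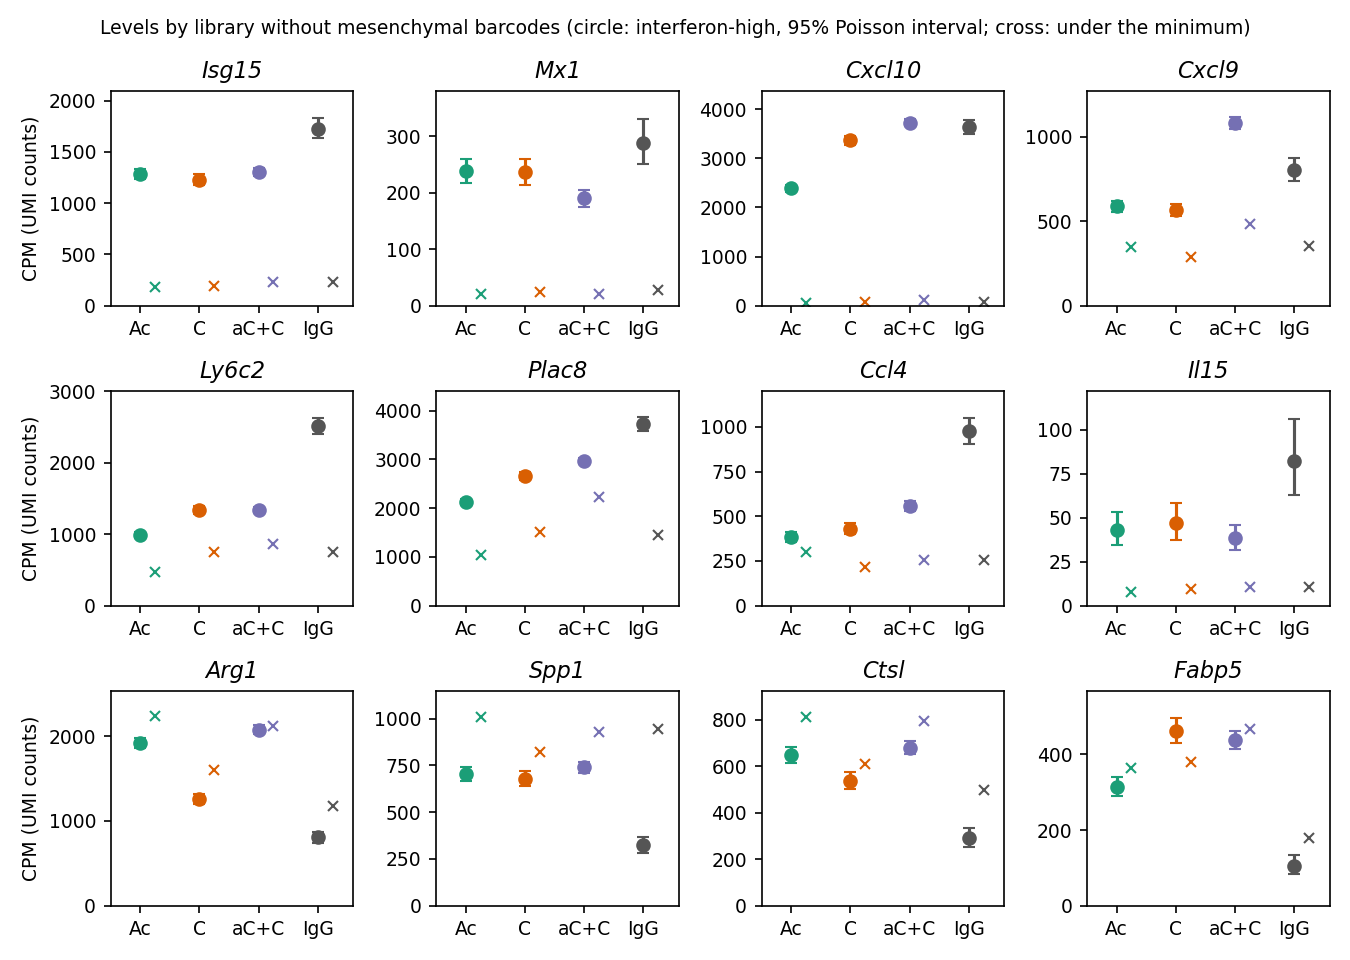
Level of 12 genes in interferon-high cells without mesenchymal barcodes (circles, bars are Poisson intervals) and in cells under the minimum (crosses), in CPM on linear y axes from 0, by library on the x axis. Ly6c2, Ccl4 and Il15 were highest in IgG, whereas Arg1, Spp1, Ctsl and Fabp5 were lowest there.

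Genes of lipid-handling macrophages passed 1.5 times upwards in part of the list. Of 11 lipid-associated macrophage genes with enough UMIs, 3 for Ac, 8 for C and 6 for aC+C were at least 1.5 times higher and none lower, where 4.2%, 4.3% and 6.82% of all genes were higher, with a median ratio of 1.46 for Ac, 1.82 for C and 1.53 for aC+C. Fabp5, a fatty acid carrier, stood at 314 CPM in Ac, 463 in C, 438 in aC+C and 106 in IgG, a ratio to IgG of 2.96 (2.33 to 3.8) for Ac, 4.36 (3.45 to 5.6) for C and 4.13 (3.28 to 5.27) for aC+C. In cells under the minimum the ratio was 2.05 for Ac, 2.14 for C and 2.62 for aC+C. Ctsl, a lysosomal protease, stood at 648 CPM in Ac, 537 in C, 680.5 in aC+C and 292 in IgG, a ratio of 2.22 (1.92 to 2.58) for Ac, 1.84 (1.58 to 2.15) for C and 2.33 (2.02 to 2.7) for aC+C. Cd63 stood at 332 CPM in Ac, 527 in C, 432 in aC+C and 179 in IgG, with 1 cell holding 25.8% of its UMIs in IgG. Trem2, a lipid receptor of macrophages, had ratios of 1.46 for Ac, 1.82 for C and 1.53 for aC+C. All 3 libraries thus stood above IgG for these 4 genes, as did the cells under the minimum, where the ratios of Cd63 were 1.94 for Ac, 1.89 for C and 1.84 for aC+C.

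Arg1 and Spp1 were higher than in IgG in each of the 3 libraries. Arg1, the arginine-degrading enzyme of alternatively activated and tumour macrophages, stood at 1919.9 CPM in Ac, 1258 in C, 2078 in aC+C and 805 in IgG, a ratio to IgG of 2.38 (2.18 to 2.61) for Ac, 1.56 (1.42 to 1.72) for C and 2.58 (2.37 to 2.81) for aC+C. Among cells under the minimum Arg1 also passed 1.5 times upwards against IgG in Ac and aC+C, but not in C. Spp1, the matrix protein osteopontin, stood at 704 CPM in Ac, 677 in C, 739 in aC+C and 324 in IgG, with ratios of 2.17 for Ac, 2.09 for C and 2.28 for aC+C, although in cells under the minimum they were 1.07 for Ac, 0.867 for C and 0.982 for aC+C. In IgG 1 cell held 38.4% of the Spp1 UMIs, and the difference between the cell groups was not tested. Slc7a2, an importer of arginine, had the highest ratio among genes not dominated by 1 cell in both Ac and C. It stood at 112 CPM in Ac, 61.9 in C, 101 in aC+C and 8.38 in IgG, on 6 UMIs in IgG, a ratio of 13.3 (6.02 to 36.7) for Ac, 7.39 (3.28 to 20.6) for C and 12.1 (5.48 to 33.1) for aC+C, against 1.78 for Ac, 1.65 for C and 2.37 for aC+C in cells under the minimum. Nos2, the enzyme that makes nitric oxide from arginine, stood at 44.1 CPM in Ac, 4.17 in C, 58.3 in aC+C and 9.77 in IgG, on 7 UMIs in C and as many in IgG, so that Ac and aC+C were the high libraries. In Ac 1 cell held 41.6% of the Nos2 UMIs. Among cells under the minimum Nos2 likewise passed 1.5 times upwards against IgG in Ac and aC+C, but not in C. Mmp12, the macrophage elastase, stood at 243 CPM in Ac, 101 in C, 157 in aC+C and 1.4 in IgG and rested on 1 UMI in IgG; 1 cell held 46.5% of its UMIs in Ac, 50.9% in C, but 12.6% in aC+C. In cells under the minimum Mmp12 stood at 373 in Ac, 144 in C, 401 in aC+C and 131 in IgG.

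Chemokines differed in both directions. Ccl4, a chemokine for T cells and monocytes, stood at 382 CPM in Ac, 430.3 in C, 558 in aC+C and 977 in IgG, a ratio to IgG of 0.391 (0.353 to 0.434) for Ac, 0.44 (0.396 to 0.489) for C and 0.571 (0.523 to 0.624) for aC+C, against 1.17 for Ac, 0.833 for C and 0.996 for aC+C in cells under the minimum. Its level was highest in IgG, where 1 cell held 13.7% of the UMIs. Cxcl2 stood at 2804 CPM in Ac, 2032 in C, 3464 in aC+C and 1349.8 in IgG, a ratio of 2.08 (1.94 to 2.23) for Ac, 1.51 (1.4 to 1.62) for C and 2.57 (2.4 to 2.74) for aC+C, and Pf4, the platelet factor that some macrophages also make, at 282 in Ac, 166 in C, 305 in aC+C and 82.4 in IgG. Both were lowest in IgG. Among cells under the minimum both also passed 1.5 times upwards against IgG in Ac and aC+C, and neither did in C. Cxcl9 stood at 588 CPM in Ac, 564 in C, 1079 in aC+C and 804 in IgG, highest in aC+C, and Ccl8, a chemokine of C1q-high cells here, at 63 in Ac, 251 in C, 379 in aC+C and 47.5 in IgG, with 53.5% of the Ac UMIs in 1 cell. Il15 stood at 43.1 CPM in Ac, 47 in C, 38.3 in aC+C and 82.4 in IgG, a ratio of 0.524 (0.372 to 0.742) for Ac, 0.571 (0.402 to 0.814) for C and 0.465 (0.338 to 0.645) for aC+C, against 0.758 for Ac, 0.887 for C and 0.994 for aC+C in cells under the minimum. The IgG value of Il15 rests on 59 UMIs.

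Of the MHC class II genes tested, 0 for Ac, 0 for C and 1 for aC+C passed 1.5 times downwards, where 3.86%, 4.84% and 4.52% of all genes did, and none upwards. The one that passed was H2-Aa in aC+C. The median ratio to IgG over the list was 1.01 for Ac, 0.822 for C and 0.674 for aC+C on 7 genes for Ac, 6 for C and 7 for aC+C, beside 0.976 for Ac, 0.971 for C and 0.983 for aC+C for all genes. H2-Aa stood at 4193 CPM in Ac, 3039 in C, 2840.1 in aC+C and 4301 in IgG, a ratio of 0.975 (0.935 to 1.02) for Ac, 0.707 (0.676 to 0.739) for C and 0.66 (0.634 to 0.688) for aC+C, and in cells under the minimum the ratio was 0.863 for Ac, 0.819 for C and 0.693 for aC+C. With all members, mesenchymal barcodes included, the H2-Aa ratio was 0.855 for Ac, 0.488 for C and 0.397 for aC+C. MHC class I and peptide loading had median ratios of 0.862 for Ac, 0.933 for C and 0.967 for aC+C. The checkpoint ligand Cd274 stood at 188 CPM in Ac, 205 in C, 237 in aC+C and 172 in IgG, a ratio of 1.1 (0.893 to 1.36) for Ac, 1.2 (0.971 to 1.48) for C and 1.38 (1.14 to 1.68) for aC+C. The interval of aC+C lay above 1 and those of Ac and C held it.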

How the data were processed

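Single cells were captured in droplets and their transcripts counted by UMI in 4 libraries, 1 per group. The authors deposited raw counts, a matrix of UMIs per gene and barcode for each library, with every one of 6794880 possible barcodes and 27998 genes; the barcode and gene lists (other text) were deposited beside them. Counts were made with Cell Ranger 2.1.1 against mm10, per the submitters' processing notes, while the matrix headers name software 3.0.2, per the file headers. The labels name a v2 kit; the deposited barcode list is longer than that kit's, and this was not resolved.

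Barcodes with at least 1000 UMIs, at least 200 genes and at most 10% mitochondrial UMIs were kept. UMIs were summed per library and cell group and given as CPM (UMIs per 1000000 UMIs of the group). A gene was called between cell groups at 2 times in the same direction in all 4 libraries (at least 100 UMIs over all sums), and between libraries at 1.5 times (at least 100 UMIs over both). A sum of 0 was set to 3 counts in ratios, and no ratio was formed where both sums held 3 counts or fewer. Intervals are exact at 95% (Poisson for levels, Clopper-Pearson for shares, conditional binomial for ratios). Named genes were the rule genes, the 20 highest and 10 lowest between cell groups, the 8 highest and lowest per library with at most 20% of UMIs in 1 cell, and of each list its 4 most abundant members and those past the fold; others were chosen after their values were seen. Doublets were scored with Scrublet in scanpy 1.11.5, which marked 94 to 142 barcodes a library; they were kept, and removed as an alternative. Cells were thinned to 1000 UMIs for shares. The members and gene lists were chosen with earlier results of these data known. Alternatives were the minimum, the gene minimum, TMM factors (edgeR 4.0.16), cell means, barcode filters, free RNA removal and left-out libraries. The gene counting was tested on simulated data. Python 3.11.15, numpy 2.4.6, scipy 1.17.1, pandas 2.3.3, matplotlib 3.10.9 and R 4.3.3 were used.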

Additional observations from a re-analysis of the deposited data

Results flagged for a closer look

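Some genes moved one way relative to IgG in interferon-high cells and the other way in cells under the minimum, both without mesenchymal barcodes. With 1 library a group these differences were not tested. In Ac, Ccl17, a chemokine for CCR4-bearing T cells, was 5.56 times IgG in interferon-high cells, against 0.585 times in cells under the minimum, and 1 cell held 77.7% of its UMIs in interferon-high cells of Ac. Mgl2, a lectin of macrophages and dendritic cells, was in Ac 1.51 times IgG in interferon-high cells, against 0.455 times in cells under the minimum. In C, Ccl8 was 5.28 times IgG in interferon-high cells, against 0.566 times in cells under the minimum. In aC+C, Ccl24, a chemokine for eosinophils, was at least 11.5 times IgG in interferon-high cells, against 0.637 times in cells under the minimum; it had no UMI in interferon-high cells of IgG, so the ratio is a bound set at 3 counts for that library. Slpi, a protease inhibitor of epithelial cells and phagocytes, went the other way in all 3 libraries. It was 0.581 times IgG in interferon-high cells, against 2.53 times in cells under the minimum in Ac, 0.316 times IgG in interferon-high cells, against 1.88 times in cells under the minimum in C, and 0.592 times IgG in interferon-high cells, against 1.95 times in cells under the minimum in aC+C. Outside the members, Ifnb1 had 125 UMIs in the Ac barcodes with mesenchymal transcripts, no Cd3e and fewer than 5 UMIs of Lyz2, where IgG had 0; these came from 3 cells, of which 1 held 121.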

How the results depend on the processing

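Of 126 values under other settings, 85 stayed within their interval or within 1.5 times their count and 41 did not; the causes were not tested. A minimum of 40 rule UMIs gave shares of 8.99% in Ac, 9.44% in C, 13.6% in aC+C and 7.63% in IgG. A minimum of 2000 rule CPM of the cell gave 12.3% in Ac, 12.7% in C, 16.3% in aC+C and 12.6% in IgG, together with 21 genes lower in all 4 libraries, and against IgG 275 higher in Ac, 516 higher and 390 lower in C, and 721 higher and 432 lower in aC+C. Removing the highest doublet scores left 305 genes higher in Ac, edgeR's TMM factors gave 338 lower in Ac, and means over cells gave 344 lower in C and 433 in aC+C. A gene minimum of 20 UMIs gave 1749 higher and 697 lower in Ac, 3037 higher and 1465 lower in C and 2895 higher and 1552 lower in aC+C, as it admits more genes. Among settings chosen after seeing the data, leaving out barcodes with mesenchymal transcripts gave shares of 11.8% in C and 17.1% in aC+C, 25 genes lower in all 4 libraries, and against IgG 147 higher and 135 lower in Ac, 136 higher and 153 lower in C and 300 higher and 199 lower in aC+C. Leaving out barcodes of 40000 UMIs or more gave 16 genes lower in all 4 libraries, and against IgG 144 higher and 133 lower in Ac, 199 higher and 189 lower in C and 308 higher and 215 lower in aC+C. Cells under the minimum without Ncr1 gave 19 genes lower. Leaving out each library in turn gave 201 to 473 genes higher and 47 to 88 lower in the other 3, most of both without IgG, and 78 lower without Ac. No paired analysis was possible because each group has 1 library. Low genes rest on few UMIs in IgG, which had 63 interferon-high cells, and a gene listed at 0 there can only be given a bound.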

Other observations

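Genes of the cell cycle were found mainly on the C1q-high side of the members without mesenchymal barcodes. Of 17 S, G2 and M phase genes with enough UMIs, 11 were at least 2 times higher in C1q-high than in C1q-low interferon-high cells in all 4 libraries, where 2.31% of all genes were, and none was lower. Mki67, a marker of cycling cells, stood at 69.4 CPM in Ac, 47.8 in C, 44.2 in aC+C and 30.4 in IgG in C1q-high cells and at 0 CPM in Ac, 0 in C, 7.7 in aC+C and 9.32 in IgG in C1q-low cells. Top2a, a topoisomerase of dividing cells, stood at 122 CPM in Ac, 73 in C, 87.4 in aC+C and 60.9 in IgG in C1q-high cells and at 13.5 CPM in Ac, 12.3 in C, 3.85 in aC+C and 3.11 in IgG in C1q-low cells. The C1q-high cells also had more UMIs per cell, whose part in this was not tested. Against cells under the minimum, none of 20 genes of the list passed 2 times in all 4 libraries.

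Other programs were also compared between interferon-high cells and cells under the minimum without mesenchymal barcodes. None of 16 immediate early and dissociation genes, 14 genes of glycolysis and hypoxia, 8 genes of heme, iron and oxidative stress, 12 inflammatory myeloid genes or 7 chemokine receptors passed 2 times in all 4 libraries. Of all genes 1.68% were higher and 0.246% lower, so lists of this size with no gene past the limit are near the general share. Hmox1, the enzyme that degrades heme, stood at 61 CPM in Ac, 78.6 in C, 90 in aC+C and 74 in IgG in interferon-high cells, against 197 CPM in Ac, 118 in C, 154 in aC+C and 98.9 in IgG in cells under the minimum, lower in each library but past 2 times in Ac alone. Between libraries, the immediate early list held transcription factors that also respond to tissue handling. In Ac, 1 of 15 was at least 1.5 times lower than in IgG (Atf3), where 3.86% of all genes were, and 1 higher (Egr2). In C, 1 of 13 was lower (Egr1), where 4.84% of all genes were, and in aC+C 3 of 15 (Jun, Egr1 and Atf3), where 4.52% were. Atf3 stood at 463 CPM in Ac, 484 in C, 427 in aC+C and 726 in IgG in interferon-high cells.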
